A study of Arabidopsis thaliana with 12 samples.

Results

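Serine carboxypeptidase-like (SCPL) proteins form a large plant family related to the serine carboxypeptidases, enzymes that remove amino acids from the C-terminal end of proteins with a catalytic triad of serine, aspartate and histidine. In Arabidopsis some members no longer act as peptidases but as acyltransferases that use glucose esters as donors, such as SNG1 and SNG2 in the synthesis of sinapate esters. BRS1, a member that is secreted, was identified through brassinosteroid signalling. The 10 genes described here were chosen by name and probe set, from the genes numbered SCPL20 to SCPL46: scpl20 (AT4G12910), scpl25 (AT3G02110), SCPL27 (AT3G07990), scpl29 (AT4G30810), scpl31 (AT1G11080), SCPL34 (AT5G23210), scpl35 (AT5G08260), scpl42 (AT5G42240), SCPL45 (AT1G28110) and scpl46 (AT2G33530). They are 10 of 22746 probe sets on the array, 1 probe set for each gene, and no role of a single one of them is stated here. Their choice was made with earlier results of these data known.

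Transcripts were measured in the aerial part of 10-day-old CCA1-ox Arabidopsis thaliana seedlings of the Columbia background, which overexpress the circadian clock transcription factor CIRCADIAN CLOCK ASSOCIATED 1. Every group carries this transgene. Its promoter and the number of lines used are not stated in the labels, the level of CCA1 itself was not analysed here, and no wild type entered the comparisons. Plates held full-strength MS agar and 1% sucrose, and days had 16 h light and 8 h dark. They were harvested at ZT0 (lights on), ZT6 and ZT12 (both in the light) and ZT18 (2 h into the dark), with 3 arrays at each time, where ZT counts hours from lights on. The question was how transcript levels change over the day in this line.

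Values are the deposited log2 expression values of Affymetrix arrays, so a difference of 1 is a doubling. Means are given ± SD with n = 3 arrays per time, and single arrays are listed in the order of replicates 1, 2 and 3. A difference is said to have passed when its adjusted p from limma was under 0.05. No label says that replicates came from separate cultures, so the p-values rest on array-to-array spread that may be only technical. Levels are compared between times of the same probe set only, because probe sets differ in how brightly they bind. In whole aerial tissue, fewer cells of a type and less RNA per cell cannot be told apart.

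Array medians ran from 6.26 to 6.43, and the same floor of 2.06 held on all arrays. Of the 8 listed markers of green tissue, 3 had a named probe set (RCA, LHCB4.3 and SBPASE) and all 3 were above 4 on every array. Of 5 root markers, 2 had a named probe set: PYK10 was between 12.55 and 13.44 on every array and EXPA7 was at the floor on every array. The markers other than EXPA7 moved with the time of day. From ZT0 to ZT6 RCA rose by 0.49, LHCB4.3 by 1.77, SBPASE by 0.82 and PYK10 by 0.40 on the log2 scale. All 4 passed, where 27.6% of all tested probe sets rose. From ZT12 to ZT18 RCA (-0.38) and SBPASE (-0.36) fell, where 24.4% of all did. From ZT18 to ZT0 LHCB4.3 (-1.44), SBPASE (-0.64) and PYK10 (-0.45) fell, where 18.5% of all did. Their part in the results below was not tested. The chip's control probes for actin, GAPDH and ubiquitin read both ends of their transcripts, and the excess of the 3' over the 5' reading, which grows when RNA or its copy is shortened, was 3.57 to 4.06 on the ZT18 arrays and 2.84 to 3.51 on the other 9. For the 10 genes, results that rest on ZT18 are also given with this signal as a covariate, and those of other genes are given without it. Because its ranges do not overlap between ZT18 and the other arrays, such a fit can only partly separate the signal from the time. When the replicate number was added as a block to that covariate, SCPL34 was the only one of the 10 genes with a call in any comparison that involves ZT18. Of all tested probe sets, 1.74% to 7.96% were called in these comparisons.

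The SCPL transcripts did not share 1 daily course. Of the 10 genes, 8 differed among the 4 times in the F-test, against 70.1% of all tested probe sets, which is near the background. Neither scpl25 nor SCPL27 passed. All 10 genes were above 4, the detection limit used here, on all 12 arrays, so none entered the test through 1 time alone. The range between highest and lowest time mean was at least 1 (2-fold) for 6 of 10 genes, all of which passed the F-test, against 32.3% of tested probe sets. The median range was 1.51 for the 10 genes and 0.73 for all tested probe sets. Because the 10 genes were chosen with earlier results of these data known, these contrasts with the background are descriptions and no test. In scpl26, a gene of the same number range that was not among the 10, the range was 0.29. In 5 genes that passed the lowest mean fell at ZT0 (22.0% of all tested), and in 4 the highest mean fell at ZT18 (16.3% of all tested).

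**Figure D1:**
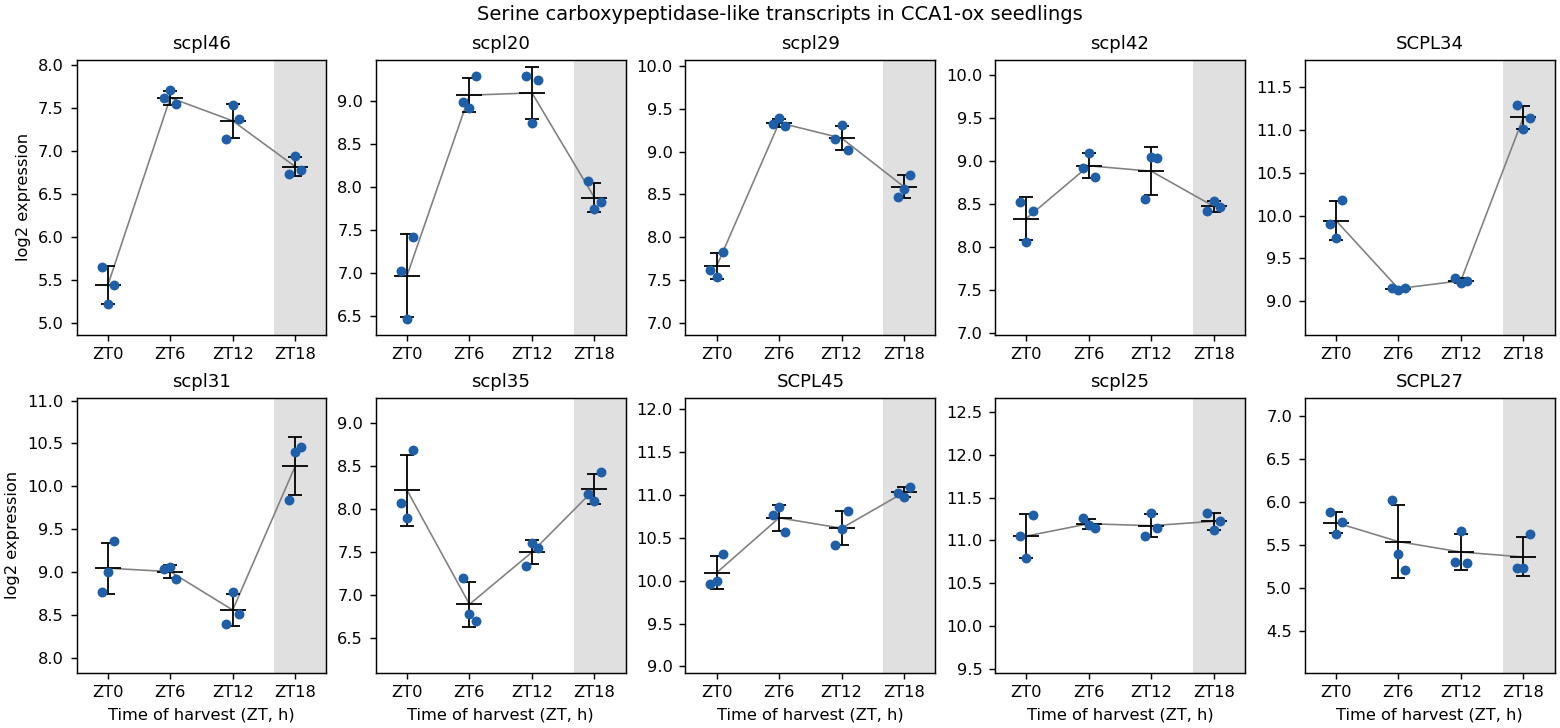
Log2 expression of the 10 SCPL genes (y axis, log2 units, each panel spanning 3.2 units) at ZT0, ZT6, ZT12 and ZT18 (x axis), with each array as a blue point, the mean as a black bar, error bars of 1 SD (n = 3) and the dark period shaded. Genes scpl46, scpl20, scpl29 and scpl42 were high in the light, SCPL34 and scpl31 were high at ZT18, and scpl35 was high at both ZT18 and ZT0. SCPL45 was lowest at ZT0 and highest at ZT18, and scpl25 and SCPL27 varied within their spread.

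High means at both light times and a low mean at ZT0 described 4 genes, scpl46, scpl20, scpl29 and scpl42, a grouping made after their values were seen. The widest range belonged to scpl46. Its 3 arrays read 5.65, 5.21 and 5.44 at ZT0, 7.61, 7.71 and 7.54 at ZT6, 7.14, 7.54 and 7.38 at ZT12, and 6.73, 6.94 and 6.78 at ZT18. Every light array was above every ZT18 array, and every ZT18 array was above every ZT0 array. Between ZT0 and ZT6 it rose 4.55-fold, from 5.44 ± 0.22 to 7.62 ± 0.08 (log2 change 2.19, SE 0.15, adjusted p = 2.07e-07). Its ZT18 mean, 6.82 ± 0.11, was lower than its ZT12 mean, 7.35 ± 0.20 (adjusted p = 0.0113), and it fell by a further 1.38 to ZT0 (adjusted p = 4.55e-05). The call on the fall to ZT18 was lost without ZT12 replicate 2, and both calls were lost with the replicate block and the covariate together. Over all alternatives these changes were -0.97 to -0.44 and -1.49 to -0.98. The order of its levels was ZT6, ZT12, ZT18 and ZT0, and of these neighbours only ZT6 and ZT12 did not differ by the test.

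The course of scpl20 was similar in shape. At ZT0 the arrays gave 7.02, 6.46 and 7.42, at ZT6 8.99, 8.92 and 9.30, at ZT12 9.29, 8.75 and 9.25, and at ZT18 8.07, 7.74 and 7.83. The ZT6 and ZT12 arrays overlapped each other, and neither overlapped ZT18 or ZT0. The rise from ZT0 to ZT6 was 4.29-fold (log2 change 2.10, SE 0.23, adjusted p = 6.05e-06). The fall from ZT12 to ZT18 was 2.33-fold (adjusted p = 0.000672), and the fall from ZT18 to ZT0 was 1.88-fold (adjusted p = 0.00749). With the 3' minus 5' covariate the ZT12 to ZT18 step shrank to -0.64 (adjusted p = 0.135) and the ZT18 to ZT0 step grew to -1.45 (adjusted p = 0.00602). Neither step passed with the replicate block and the covariate together, and over all alternatives they were -1.39 to -0.50 and -1.59 to -0.65. The rise from ZT0 to ZT6 was 2.16 with the covariate.

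Replicates of scpl29 lay close together. Its arrays read 7.62, 7.54 and 7.83 at ZT0, 9.32, 9.39 and 9.30 at ZT6, 9.14, 9.30 and 9.02 at ZT12, and 8.47, 8.57 and 8.73 at ZT18. As in scpl46, the light arrays were all above the ZT18 arrays and these were all above the ZT0 arrays. Its rise from ZT0 to ZT6 was 3.19-fold (log2 change 1.67, SE 0.12, adjusted p = 2.72e-07). It fell by 0.57 from ZT12 to ZT18 (adjusted p = 0.00193) and by 0.93 from ZT18 to ZT0 (adjusted p = 0.000147), and both steps still passed with the covariate (adjusted p = 0.0244 and adjusted p = 0.0104). Both calls were lost when the replicate block was added to the covariate (adjusted p = 0.393 and adjusted p = 0.189). Over all alternatives the sizes of these steps stayed at -0.67 to -0.49 and at -1.01 to -0.83.

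The smallest of these courses was that of scpl42. Its arrays gave 8.52, 8.05 and 8.42 at ZT0, 8.92, 9.10 and 8.81 at ZT6, 8.56, 9.05 and 9.04 at ZT12, and 8.41, 8.54 and 8.47 at ZT18. One ZT12 array lay close to the ZT0 and ZT18 arrays, and the ZT0 and ZT18 arrays overlapped. It rose 1.53-fold from ZT0 to ZT6 (log2 change 0.61, SE 0.16, adjusted p = 0.00540). The fall of 0.41 from ZT12 to ZT18 was only just past the threshold (adjusted p = 0.0475). That call was lost with the covariate (adjusted p = 0.0674), with the replicate number as a block, and under most other settings, including leaving out any 1 of the ZT6 or ZT18 arrays. ZT18 and ZT0 did not differ by the test (-0.14, 95% interval -0.49 to 0.20). In the RefSeq annotation scpl41 is the nearest family gene to scpl42, with 2 coding genes between them on chromosome 5. The scpl41 probe set was at the floor on every array.

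Another 3 genes, SCPL34, scpl31 and scpl35, passed as higher at ZT18 than at both light times. This grouping was also made after their values were seen, and their levels at ZT0 differed in place. The steepest was SCPL34, with arrays at 9.90, 9.74 and 10.19 at ZT0, 9.16, 9.14 and 9.15 at ZT6, 9.27, 9.22 and 9.23 at ZT12, and 11.29, 11.01 and 11.13 at ZT18. All ZT18 arrays were above all ZT0 arrays, which were all above the light arrays, and within each light time the arrays differed by less than 0.1. From ZT12 to ZT18 it rose 3.74-fold, from 9.24 ± 0.03 to 11.14 ± 0.14 (log2 change 1.90, SE 0.12, adjusted p = 1.25e-07). It fell by 1.20 from ZT18 to ZT0 (adjusted p = 2.16e-05) and by 0.79 from ZT0 to ZT6 (adjusted p = 9.24e-05). These 3 changes passed under every alternative tried, and with the covariate the rise at ZT18 was 2.10. The fall from ZT18 to ZT0 did so only just, with a highest adjusted p of 0.0475 among the alternatives.

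At ZT18, scpl31 stood above its other times. Its arrays were 8.77, 9.01 and 9.36 at ZT0, 9.04, 9.06 and 8.92 at ZT6, 8.40, 8.77 and 8.52 at ZT12, and 9.85, 10.40 and 10.46 at ZT18. No ZT18 array overlapped any other time, while ZT0 and ZT6 overlapped. The rise from ZT12 to ZT18 was 3.20-fold (log2 change 1.68, SE 0.18, adjusted p = 1.11e-05) and was 1.21 with the covariate (adjusted p = 0.00364). From ZT18 to ZT0 it fell by 1.19 (adjusted p = 0.000410), or by 0.75 with the covariate (adjusted p = 0.0404). Both calls were lost with the replicate block and the covariate together (adjusted p = 0.115 and adjusted p = 0.277). Their sizes over all alternatives were 1.21 to 1.87 and -1.38 to -0.75. ZT6 and ZT0 did not differ by the test (-0.04, 95% interval -0.43 to 0.35). This separates its values from those of SCPL34, which were 1.73-fold lower at ZT6 than at ZT0, although the difference between the 2 genes was not tested.

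For scpl35 the means at ZT18 and ZT0 were close, and no time between them was sampled. Its arrays read 8.07, 7.90 and 8.69 at ZT0, 7.19, 6.78 and 6.70 at ZT6, 7.34, 7.61 and 7.55 at ZT12, and 8.18, 8.09 and 8.43 at ZT18. ZT0 and ZT18 overlapped widely, and both were above every light array. The level at ZT0 differed from that at ZT18 by -0.01 (95% interval -0.45 to 0.43, adjusted p = 0.972). It fell 2.51-fold between ZT0 and ZT6 (log2 change -1.33, SE 0.20, adjusted p = 0.000113). The arrays of ZT12 were all above those of ZT6, by 0.61 on average, but this did not pass over all genes (adjusted p = 0.132). The rise of 0.73 from ZT12 to ZT18 (adjusted p = 0.00918) was 0.70 with the covariate (adjusted p = 0.142) and 0.15 with the replicate block and the covariate together (adjusted p = 0.912), so the call was lost under both.

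The lowest level of SCPL45 was at ZT0 and its highest at ZT18. Arrays were at 9.97, 10.00 and 10.31 at ZT0, 10.77, 10.86 and 10.57 at ZT6, 10.42, 10.60 and 10.81 at ZT12, and 11.03, 10.97 and 11.09 at ZT18. The ZT0 arrays were below all others, the ZT6 and ZT12 arrays overlapped, and the ZT18 arrays were above all others. It rose 1.56-fold from ZT0 to ZT6 (log2 change 0.64, SE 0.13, adjusted p = 0.000929) and fell 1.91-fold from ZT18 to ZT0 (adjusted p = 0.000190). The ZT12 to ZT18 rise of 0.42 passed (adjusted p = 0.0159) but was 0.23 with the covariate (adjusted p = 0.412). Its call was also lost with the replicate block and the covariate together and without ZT12 replicate 1. Over all alternatives that rise was 0.02 to 0.52. The call on the fall from ZT18 to ZT0 was lost with the replicate block and the covariate together (adjusted p = 0.366). Over all alternatives that fall was -1.05 to -0.56. The difference of 0.30 between ZT18 and ZT6 did not pass (adjusted p = 0.0752), but it passed with median centring, in a fit to the 6 arrays compared, and without ZT0 replicate 3.

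No daily change was detected in scpl25 or SCPL27. The arrays of scpl25 gave 11.06, 10.80 and 11.30 at ZT0, 11.26, 11.18 and 11.14 at ZT6, 11.05, 11.32 and 11.15 at ZT12, and 11.32, 11.12 and 11.23 at ZT18. All 4 times overlapped, and the range of the means was 0.17 (F-test adjusted p = 0.568). The widest of its 6 differences, ZT0 against ZT18, had a 95% interval of -0.44 to 0.09. For SCPL27 the arrays were 5.89, 5.63 and 5.77 at ZT0, 6.02, 5.40 and 5.20 at ZT6, 5.30, 5.67 and 5.29 at ZT12, and 5.23, 5.23 and 5.62 at ZT18. Its ZT0 arrays lay just above its ZT18 arrays, a difference of 0.40 with a 95% interval of -0.07 to 0.87 (adjusted p = 0.162), so a change of up to about that upper bound could not be told from the spread.

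**Figure D2:**
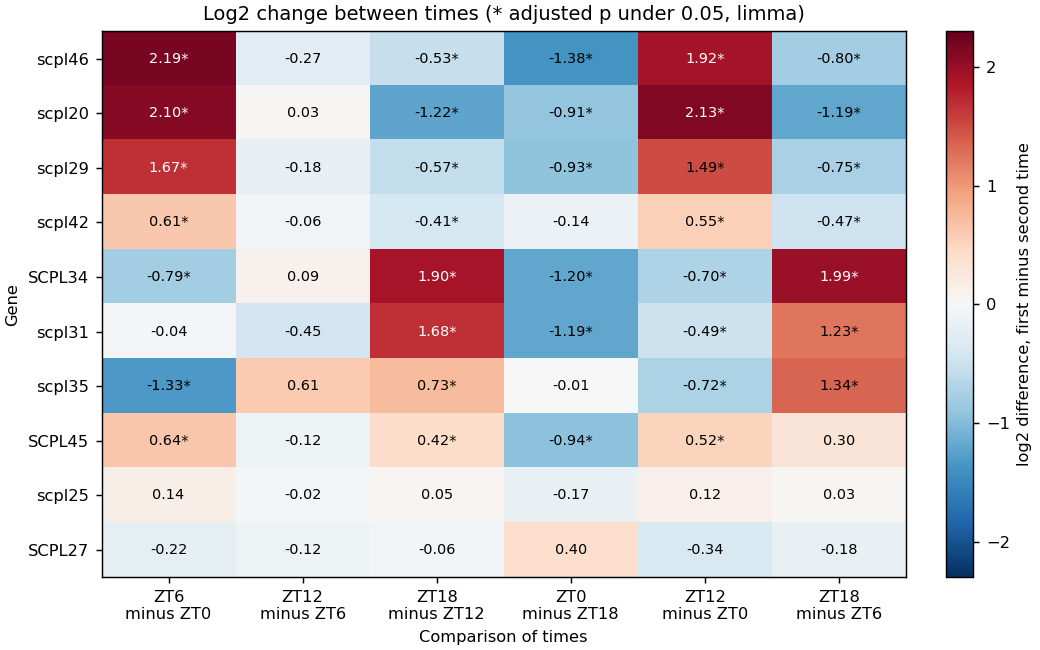
Log2 differences between times (colour and printed value, first minus second time) for the 10 SCPL genes (rows) in the 6 comparisons (columns), with an asterisk where the adjusted p from limma was under 0.05. The column ZT12 minus ZT6 holds no asterisk, and every asterisk in the column ZT0 minus ZT18 marks a negative value.

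Between ZT0 and ZT6 the genes scpl46, scpl20, scpl29, SCPL45 and scpl42 rose and scpl35 and SCPL34 fell. These are 5 of 10 higher, where 27.6% of tested probe sets were higher, and 2 of 10 lower, where 28.4% were. The median change was 0.38 for the 10 genes and -0.01 for all tested probe sets. Between ZT0 and ZT12 the counts were 5 higher (25.6% of all tested) and 3 lower (28.4% of all tested), the third being scpl31 with a difference of -0.49 (adjusted p = 0.0377). That call on scpl31 was lost with no filter, with quantile normalisation and without any 1 of ZT0 replicates 2 and 3, ZT6 replicate 2 and ZT12 replicates 1 and 3. The call on scpl42 in the same comparison was lost without ZT0 replicate 2 (adjusted p = 0.0523).

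Within the light, from ZT6 to ZT12, limma called 0 of the 10 genes, where 2.12% of tested probe sets were called in either direction, and 2 of the 10 had an unadjusted p under 0.05 (scpl31 and scpl35). The differences ran from -0.45 in scpl31 to 0.61 in scpl35. For the genes with the widest daily ranges the intervals were narrow against those ranges: the change of scpl46 was -0.27 (95% interval -0.60 to 0.06), that of SCPL34 was 0.09 (95% interval -0.16 to 0.35) and that of scpl20 was 0.03 (95% interval -0.46 to 0.51).

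Across lights off, from ZT12 to ZT18, 4 of 10 genes rose (SCPL34, scpl31, scpl35 and SCPL45), against 26.1% of tested probe sets, and 4 fell (scpl20, scpl29, scpl46 and scpl42), against 24.4%. The median change of the 10 genes was near 0 (-0.0031), whereas the median absolute change was 0.55, compared with 0.42 for all tested probe sets. With the 3' minus 5' covariate SCPL34 and scpl31 still passed as higher and scpl46 and scpl29 as lower, which makes 4 of the 8. Over all tested probe sets that covariate took the share called from 50.5% to 26.5%. With the replicate block added to the covariate, 1 of the 8 passed, SCPL34, where 4.26% of all tested probe sets did. Between ZT6 and ZT18, 3 genes were higher at ZT18 (SCPL34, scpl35 and scpl31, where 22.8% of all tested were) and 4 were lower (scpl20, scpl46, scpl29 and scpl42, where 23.4% were). With the covariate 6 of these 7 passed, the exception being scpl20 (adjusted p = 0.0622), and with the replicate block added to it 1 passed, SCPL34. Over all tested probe sets 46.2% were called in the main fit, 32.6% with the covariate and 7.96% with both. The call on scpl42 was also lost with no filter and without any 1 of ZT6 replicates 1 and 2 and ZT18 replicates 1 and 3.

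From ZT18 to ZT0, genes of both groups were among those that fell. They were 3 of the 4 that were high in the light and 2 of the 3 that were higher at ZT18 than in the light, together with SCPL45. Because the groups were formed from these same means, by a low ZT0 or a high ZT18 level, this is a description only. Of 10 genes, 6 were lower at ZT0 than at ZT18 (scpl46, SCPL34, scpl31, SCPL45, scpl29 and scpl20), where 18.5% of tested probe sets were lower, and 0 were higher, where 18.6% were. The median difference was -0.92 for the 10 genes and 0.0036 for all tested probe sets. All 6 still passed with the covariate, where the share of all tested probe sets called in either direction went from 37.0% to 19.9%. All 6 also passed when any 1 array was left out, where 27.8% to 38.6% of all were called. With the replicate block and the covariate together 1 of the 6 passed, SCPL34, where 1.74% of all did. The other 4 genes had differences of -0.17 (scpl25), -0.14 (scpl42), -0.01 (scpl35) and 0.40 (SCPL27).

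**Figure D3:**
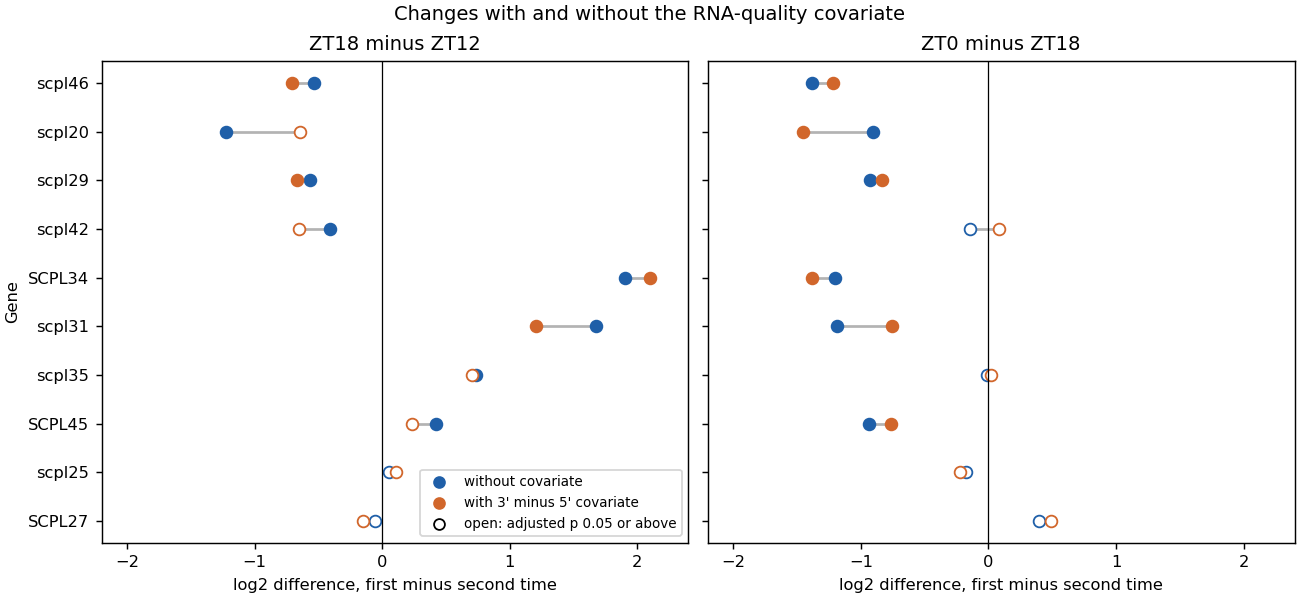
Log2 differences (x axis) of the 10 SCPL genes (y axis) for ZT18 minus ZT12 (left) and ZT0 minus ZT18 (right), in blue without and in orange with the 3' minus 5' signal as a covariate, filled where the adjusted p was under 0.05. On the left 4 of 8 calls stayed filled, and on the right 6 of 6 did. With the covariate 26.5% (left) and 19.9% (right) of all tested probe sets were called, against 50.5% and 37.0% without it.

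Over the 12 arrays, the 45 pairs of genes had Pearson correlations from -0.73 to 0.98, with a median of 0.18. The arrays share the times of day, so these are descriptions of a common course. The closest pair was scpl29 and scpl46 (r = 0.98, Spearman rho = 0.97), and each pair among scpl46, scpl20, scpl29 and scpl42 had r of at least 0.80. Among the genes higher at ZT18 than in the light, SCPL34 correlated with scpl31 at r = 0.88 and with scpl35 at r = 0.77. The rank correlation was 0.54 for the first pair and 0.92 for the second. The third pair, scpl31 and scpl35, had r = 0.55, below scpl31 with SCPL45 (r = 0.57). With scpl46, scpl29, scpl42 and scpl20, scpl31 had r from -0.12 to -0.38. The lowest value was between scpl20 and scpl35 (r = -0.73).

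**Figure D4:**
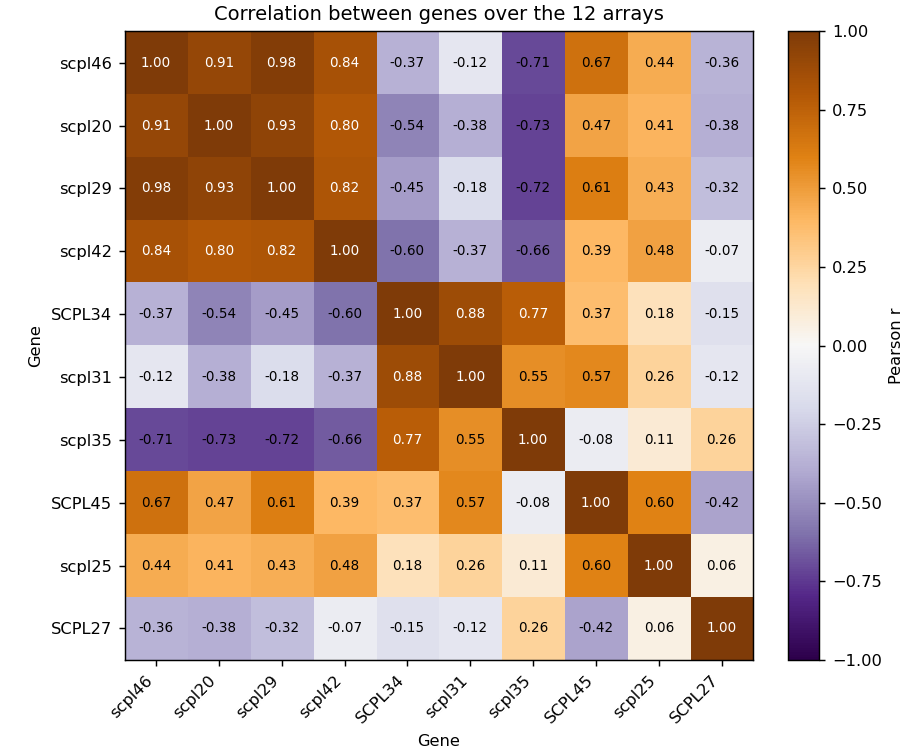
Pearson correlation over the 12 arrays (colour and printed value) between each pair of the 10 SCPL genes. Values of at least 0.80 join scpl46, scpl20, scpl29 and scpl42, which were grouped by their means on the same arrays, and scpl35 is at -0.66 to -0.73 with these 4.

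Among 7609 other probe sets with 1 gene, those most like the 3 widest courses were sought by Pearson correlation over the 12 arrays. For scpl46 they were AT3G61870 (r = 0.99), AT1G48610 (r = 0.98) and AT3G04650 (r = 0.98). For scpl20 they were AT1G36390 (r = 0.99), AT5G50740 (r = 0.98) and AT1G23180 (r = 0.98), and for SCPL34 they were AT3G60320, AT3G47570 and AT4G27900 (r = 0.98 each). AT3G61870 went from 10.18 at ZT0 to 11.83 at ZT6, 11.63 at ZT12 and 11.24 at ZT18, a narrower range than that of scpl46 (1.64 against 2.19). AT3G60320 went from 11.34 at ZT0 through 10.79 and 10.84 to 12.47 at ZT18.

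The RefSeq table names 51 genes as serine carboxypeptidase-like, of which 29 had a probe set of 1 gene, so 19 besides the 10 described. Of these 19, 15 were under 4 on every array, with no value above 2.13, and 4 were tested. In the number range SCPL20 to SCPL46 itself, 12 of 13 other genes were under 4 on every array and scpl26 was the exception. Its level at the 4 times was 10.94 to 11.23, and it did not pass the F-test (adjusted p = 0.0984). Among the genes of this range that have a probe set of 1 gene, the 10 described and scpl26 are thus those above 4, so their being detected is no finding. Genes without such a probe set were not analysed here.

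Courses like those above were also seen among the remaining 3 tested genes. SCPL49, annotated as carboxypeptidase Y, was higher at ZT6 (9.06 ± 0.11) than at ZT0 (8.26 ± 0.37, adjusted p = 0.000966), and its later means were 9.13 ± 0.06 (ZT12) and 8.84 ± 0.12 (ZT18). From 8.89 ± 0.41 at ZT0, scpl48 rose to 9.85 ± 0.08 at ZT6 (adjusted p = 0.00298), and its ZT18 mean of 8.99 ± 0.49 was below its ZT12 mean of 9.82 ± 0.10 (adjusted p = 0.00822). The level of scpl50 was 8.53 ± 0.26 at ZT12 and 9.18 ± 0.12 at ZT18, a rise (adjusted p = 0.00295) of the same sign as in SCPL34. From ZT18 to ZT0 SCPL49 and scpl50 fell (adjusted p = 0.0134 and adjusted p = 0.00944), whereas scpl48 differed by -0.10 and did not pass.

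A list of 21 other vacuolar and secreted proteases had 8 genes with a probe set of their own, 7 of them tested. Between ZT0 and ZT6, 3 of the 7 rose, where 27.6% of all tested did, and 0 fell, where 28.4% did. The median change was 0.55 for the 7 and -0.01 for all tested probe sets. Those that rose were beta-VPE and gamma-VPE, vacuolar processing enzymes of the legumain family (7.34 ± 0.31 to 9.38 ± 0.17 and 10.50 ± 0.23 to 11.28 ± 0.09), and PASPA3, an aspartic protease (5.04 ± 0.46 to 5.84 ± 0.20). From ZT12 to ZT18, 2 fell, near the 24.4% of all tested, and 0 rose, where 26.1% did, and the median change was -0.05 against 0.0083 for all tested: beta-VPE, from 9.18 ± 0.53 to 7.16 ± 0.56, and the aspartic protease APA1, from 13.92 ± 0.07 to 13.65 ± 0.08. From ZT18 to ZT0, gamma-VPE and PASPA3 fell (18.5% of all tested fell) and APA1 rose (18.6% of all tested rose). None of the 7 passed between ZT6 and ZT12. Of 10 genes of sinapate ester metabolism, 2 were tested: UGT84A3, a glucosyltransferase that makes sinapoylglucose, went from 8.00 ± 0.18 at ZT0 to 9.22 ± 0.08 at ZT12, and both of its falls to ZT18 passed (adjusted p = 0.0209 from ZT6 and adjusted p = 0.000183 from ZT12). REF1, an aldehyde dehydrogenase that makes sinapate, was 11.69 ± 0.26 at ZT0, lower at ZT6 (10.88 ± 0.09, adjusted p = 0.000198) and 11.64 ± 0.16 at ZT12. None of 6 brassinosteroid genes had a named probe set.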

How the data were processed

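The deposited table holds log2 expression values per probe set, 1 value per array with no pooling by the authors. The submitters' processing notes name GCRMA, affy 1.42.3 and R 3.1, with no role or settings. The 64 chip controls among the 22810 probe sets were set aside. Tests covered the 14016 of the other 22746 with a value of 4 or more on 3 or more arrays. Differences were fitted with limma 3.58.1 in R 4.3.3 on all 12 arrays, with a mean per time and eBayes with a mean-variance trend. A moderated F-test and 6 two-sided comparisons were adjusted by Benjamini-Hochberg over all tested probe sets. The code was tested on simulated data. Genes were matched through Entrez identifiers to RefSeq names of TAIR10.1, and no coordinates are given because the files name no build. No sequences were used here.

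Groups came from the title, source name and description, which give the same time on all 12 arrays. A label for the time of harvest differs from them on 9 arrays and served only as an alternative. No array was a copy of another, since any pair had equal values in 73 to 190 tested probe sets only. The number of arrays limits the precision. The genes and lists were chosen with earlier results of these data known. The naming rule took all 10 genes, all other family genes with 1 probe set, 3 fixed gene lists, and the 3 genes most correlated with each of the 3 widest courses.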

Additional observations from a re-analysis of the deposited data

How the results depend on the processing

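The F-test called the same 8 of 10 genes under every alternative with the title groups. For scpl31 it did so only just with the replicate block and the covariate together (F = 4.63, adjusted p = 0.0487). It called 0 of the 10 genes when arrays were grouped by the deviating label for the time of harvest. In that grouping limma called 0 of 14016 tested probe sets, and 34 of them, with 0 of the 10 genes, had an unadjusted p under 0.05. Leaving out 1 array at a time gave counts of 8 to 8 for the F-test, 7 to 7 for ZT6 against ZT0, 0 to 0 for ZT12 against ZT6, 6 to 8 for ZT18 against ZT12, 6 to 6 for ZT0 against ZT18, 6 to 8 for ZT12 against ZT0 and 6 to 8 for ZT18 against ZT6. With the 3' minus 5' covariate, ZT18 against ZT12 gave 4 in place of 8, where calls over all tested probe sets went from 7078 to 3721. With the replicate block and that covariate together it gave 1, ZT0 against ZT18 gave 1 in place of 6 and ZT18 against ZT6 gave 1 in place of 7, and SCPL34 was the gene that remained each time. Over all tested probe sets the block with the covariate left 597, 244 and 1116 calls in these comparisons, against 7078, 5187 and 6478. In the same fit ZT6 against ZT0 and ZT12 against ZT0 had 8121 and 7851 calls, against 7851 and 7571. The 3' minus 5' signal did not overlap between the ZT18 arrays and the other 9. A fit with it can therefore only partly separate the signal from that time. The cause of the fewer calls was not tested. The replicate block alone gave 7 for ZT18 against ZT12, without scpl42, and changed no other call of the 10 genes. Same-numbered arrays shared deviations from their time means with r over 0.1 in 9 of 18 pairs (median r 0.09). Differently numbered arrays did so in 6 of 36 pairs (median r -0.08), and 11 of 12 arrays correlated best with an array of their own number. Arrays of 1 number thus tended to deviate alike. No label states that the number is a shared batch, so the block served as an alternative only. The main p-values leave this sharing out. Between ZT6 and ZT12 the block raised the calls over all probe sets from 297 to 815, a fit to these 6 arrays alone also gave 815, no filter gave 145, and leaving out 1 array gave 23 to 467. Leaving out the 3 ZT18 arrays, an alternative added after seeing the data, changed no call in the comparisons it allows. Of 36 calls on single genes in the 6 comparisons, 16 passed under every alternative, and none reversed.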
